A study of Mus musculus with 15 samples.

Results

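Immediate early genes are switched on within minutes of a stimulus, without the need for new protein, by transcription factors that already sit in the nucleus. In neurons the stimulus is often calcium entry during firing, which reaches these genes through the kinases of the ERK and CaM pathways, CREB with its coactivators, and SRF with ELK1 or the MRTF proteins. Their transcripts are short-lived, and in the brain they are widely read as marks of recent activity, although growth factors, stress and injury induce them too. The 10 genes described here were listed by name and matched to the deposited tables through their Ensembl identifiers. All 10 members were found, among 57180 genes. The members are Fos, Fosb, Jun and Junb, which encode subunits of the dimeric factor AP-1; Egr1, Npas4 and Nr4a1, which encode other transcription factors; Arc, whose protein acts at the synapse on glutamate receptor turnover; Ier2, a nuclear protein; and Dusp1, a phosphatase that switches off MAP kinases.

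RNA from brainstem tissue of C57BL/6 mice had been sequenced in 2 experiments with 15 libraries in all. The first compared 3 AMPK+/+ with 3 AMPK-/- libraries from littermates. The methods give postnatal days 1 to 5 as the age of the mice used, without naming these libraries. The AMPK libraries are called newborn below on that ground, as a name for the experiment and not as an age shown by these data. The knockout removes the α2 subunit of AMP-activated protein kinase and leaves the gene of the α1 subunit in place. The second compared 3 LMX1B+/+, 3 LMX1B+/- and 3 LMX1B-/- libraries from embryos, whose day is not given in the sources used here. LMX1B is a LIM homeodomain factor that patterns the hindbrain, and its null genotype is lethal before birth. Whether each library is 1 animal or a pool is not stated, so p-values measure the spread between libraries.

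The libraries set limits on these genes. AMPK+/+ 2 and AMPK-/- 3 held 291212 and 335986 counts, against 14975095 to 17384171 in the other 4 of the AMPK table and 28833130 to 37441679 in the LMX1B table. The 10 members together had 44 counts in AMPK+/+ 2 and 25 in AMPK-/- 3, and 1551 to 3620 in each of the other libraries. A count of 0 in these shallow libraries allows up to 9.98 and 9.07 CPM (counts scaled to a library of 1000000), taking 3 counts as the floor, whereas the floor was 0.0676 to 0.198 CPM elsewhere. Such floors cover counting error only. The targeted genes were checked first. Prkaa2, which encodes the α2 subunit, was at 21.9, 26.6 and 29.7 CPM in AMPK+/+ and at 25.4, 22.3 and 12.1 CPM in AMPK-/-, so the groups overlapped and this RNA does not check the label. The study describes a genotyping PCR of AMPK-/- and wild-type mice. Lmx1b was at 1.45, 1.13 and 0.848 CPM in the LMX1B-/- libraries against 22.5, 16.0 and 9.73 CPM in LMX1B+/+, but at 30.5, 11.9 and 14.3 CPM in the libraries labelled LMX1B+/-, which were not lower. Every direction below that involves AMPK-/- or LMX1B+/- therefore refers to libraries so labelled. The share of counts on mitochondrially encoded genes was 10.4% to 13.9% in AMPK+/+, 20.0% to 21.7% in AMPK-/-, 5.57% to 6.74% in LMX1B+/+, 9.58% to 14.7% in LMX1B+/- and 7.23% to 7.98% in LMX1B-/-. In bulk tissue, fewer cells of a type and less RNA per cell cannot be told apart. Neuronal markers summed to 2993 to 3369 CPM in AMPK+/+, 3716 to 3853 CPM in AMPK-/- and 4126 to 5241 CPM in the LMX1B table, each table on its own scale. With all libraries scaled together the sums were 3398 to 3766, 4041 to 4351 and 3819 to 4836 CPM, so AMPK-/- overlapped with the LMX1B libraries in sum. Single markers differed more than the sums. Means in the AMPK and LMX1B libraries, each on its own scale, were 1558 and 241 CPM for Snap25. They were 421 and 1294 CPM for Tubb3, 322 and 1265 CPM for Stmn2 and 841 and 1490 CPM for Map2. Rbfox3 (66.8 and 65.0 CPM) and Syt1 (269 and 279 CPM) were closer. Markers and transcription factors of the brainstem, such as Hox genes, summed to 151 to 489 CPM over the 15 libraries. Forebrain factors summed to 0 to 6.91 CPM in the AMPK libraries and to 27.6 to 71.2 CPM in the LMX1B libraries.

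The promoters of the members are where the activity signal arrives, and their letters show how the members differ. RefSeq sequences on the GRCm38.p6 build, from 250 bases before to 50 bases after the transcription start, were matched for 7 of the 10 members, all but Arc, Egr1 and Ier2. The core of the cAMP response element bound by CREB, TGACG on either strand, was present in 6 of these 7. It was present in 20.8% of the 32851 promoters of the same length. Members were rich in G and C (58.7% to 72.3%, against a median of 52.7% over all promoters). The full palindrome, TGACGTCA, holds the core on both strands and was found in Dusp1 alone among the 7, against 1.79% of all promoters. The GC box GGGCGG was found in 6 of 7, all but Junb, against 35.7% of all promoters. The letters of the TATA box, TATAAA, were found in Fos and Junb, against 13.6%, but in Junb they lie at the annotated start itself and not upstream of it. The CArG box bound by SRF was in none of the 7 windows and in 1.63% of all promoters. A match is a run of letters and not a shown binding site, and a missing match covers this window only. The sequences of 6 members are given 5′ to 3′ along the gene, with each core and the full palindrome in capitals. Fos and Fosb are shown for their difference between the experiments, Npas4 and Nr4a1 for their levels in LMX1B+/- libraries, Dusp1 for the full element, and Jun as the member without a core.
Fos, chr12:85473640-85473939, plus strand: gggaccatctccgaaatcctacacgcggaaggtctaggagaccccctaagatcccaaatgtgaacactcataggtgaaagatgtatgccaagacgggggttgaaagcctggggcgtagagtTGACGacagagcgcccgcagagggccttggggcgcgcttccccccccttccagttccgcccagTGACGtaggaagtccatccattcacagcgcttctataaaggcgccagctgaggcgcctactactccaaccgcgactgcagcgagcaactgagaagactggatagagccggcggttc
Fosb, chr7:19309996-19310295, minus strand: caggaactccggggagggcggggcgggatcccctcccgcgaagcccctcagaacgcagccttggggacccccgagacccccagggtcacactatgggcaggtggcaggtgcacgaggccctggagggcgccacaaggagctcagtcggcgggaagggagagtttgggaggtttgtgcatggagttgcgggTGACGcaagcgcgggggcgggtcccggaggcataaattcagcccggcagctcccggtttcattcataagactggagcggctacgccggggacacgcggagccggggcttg
Npas4, chr19:4989922-4990221, minus strand: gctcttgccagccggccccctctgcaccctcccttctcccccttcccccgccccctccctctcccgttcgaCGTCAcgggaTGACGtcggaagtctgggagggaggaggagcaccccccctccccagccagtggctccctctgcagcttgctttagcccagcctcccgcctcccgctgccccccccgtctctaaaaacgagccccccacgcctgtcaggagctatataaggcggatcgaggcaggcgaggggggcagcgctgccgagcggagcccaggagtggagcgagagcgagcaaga
Nr4a1, chr15:101266596-101266895, plus strand: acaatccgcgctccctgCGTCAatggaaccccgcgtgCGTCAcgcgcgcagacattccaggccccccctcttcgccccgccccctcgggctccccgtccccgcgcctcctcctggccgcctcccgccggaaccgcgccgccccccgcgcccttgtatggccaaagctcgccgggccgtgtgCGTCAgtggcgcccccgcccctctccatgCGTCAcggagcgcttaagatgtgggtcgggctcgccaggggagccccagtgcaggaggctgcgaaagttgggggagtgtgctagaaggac
Dusp1, chr17:26508423-26508722, minus strand: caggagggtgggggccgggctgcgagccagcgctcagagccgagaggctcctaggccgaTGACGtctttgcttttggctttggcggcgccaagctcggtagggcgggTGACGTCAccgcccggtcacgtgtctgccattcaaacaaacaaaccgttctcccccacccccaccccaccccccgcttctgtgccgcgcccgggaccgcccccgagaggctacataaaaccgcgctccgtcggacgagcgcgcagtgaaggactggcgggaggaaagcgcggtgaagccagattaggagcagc
Jun, chr4:95052173-95052472, minus strand: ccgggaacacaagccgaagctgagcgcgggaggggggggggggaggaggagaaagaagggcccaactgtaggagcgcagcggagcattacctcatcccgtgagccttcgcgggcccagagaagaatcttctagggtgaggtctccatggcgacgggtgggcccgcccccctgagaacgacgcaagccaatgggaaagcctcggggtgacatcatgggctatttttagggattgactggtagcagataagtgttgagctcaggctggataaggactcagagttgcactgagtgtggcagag

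In the Fos window the cores began 129 and 66 bases before the start, the second upstream of TATAAA at -33. Fosb had 1 core at -60. Npas4 had a core on each strand, at -179 and -169. Nr4a1 had 4, at -233, -213, -69 and -40, all written as CGTCA. Dusp1 had the full element at -143 and another core at -191.

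Levels can be compared between genes only per length, for which the deposited RPKM (counts divided by gene length and library total) were used. In the 3 embryonic genotypes Jun was highest, with 13.4 ± 1.34 RPKM in LMX1B+/+, 10.1 ± 2.41 in LMX1B+/- and 14.6 ± 0.832 in LMX1B-/- (SD, n = 3). Its lowest library lay above the highest library of the next gene, Dusp1, in each genotype. Ier2 and Nr4a1 came next, and Fosb was last, at 0.0205 ± 0.0164 RPKM in LMX1B+/+. Egr1, at 0.839 ± 0.0144 RPKM, overlapped with Fos above it and not with Fosb below it. RPKM divide by the whole total, of which 1 gene took 21.9%, 18.4% and 4.56% in LMX1B+/+ 1, 2 and 3. In the CPM given below, which use a rescaled total, Egr1 was at 3.97, 3.71 and 3.02 in these libraries. The small SD therefore holds for RPKM only. The order in newborn AMPK+/+ brainstem began with Arc at 9.39 ± 0.627 RPKM, followed by Jun at 8.49 ± 1.76, Egr1 at 7.99 ± 1.77, Fos at 7.20 ± 2.37 and Dusp1 at 6.71 ± 3.18 RPKM. Each of these neighbours overlapped with the next across the 3 libraries. Arc and Egr1 thus stood at ranks 1 and 3 in newborn wild types and at ranks 6 and 9 in embryonic wild types.

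**Figure D1:**
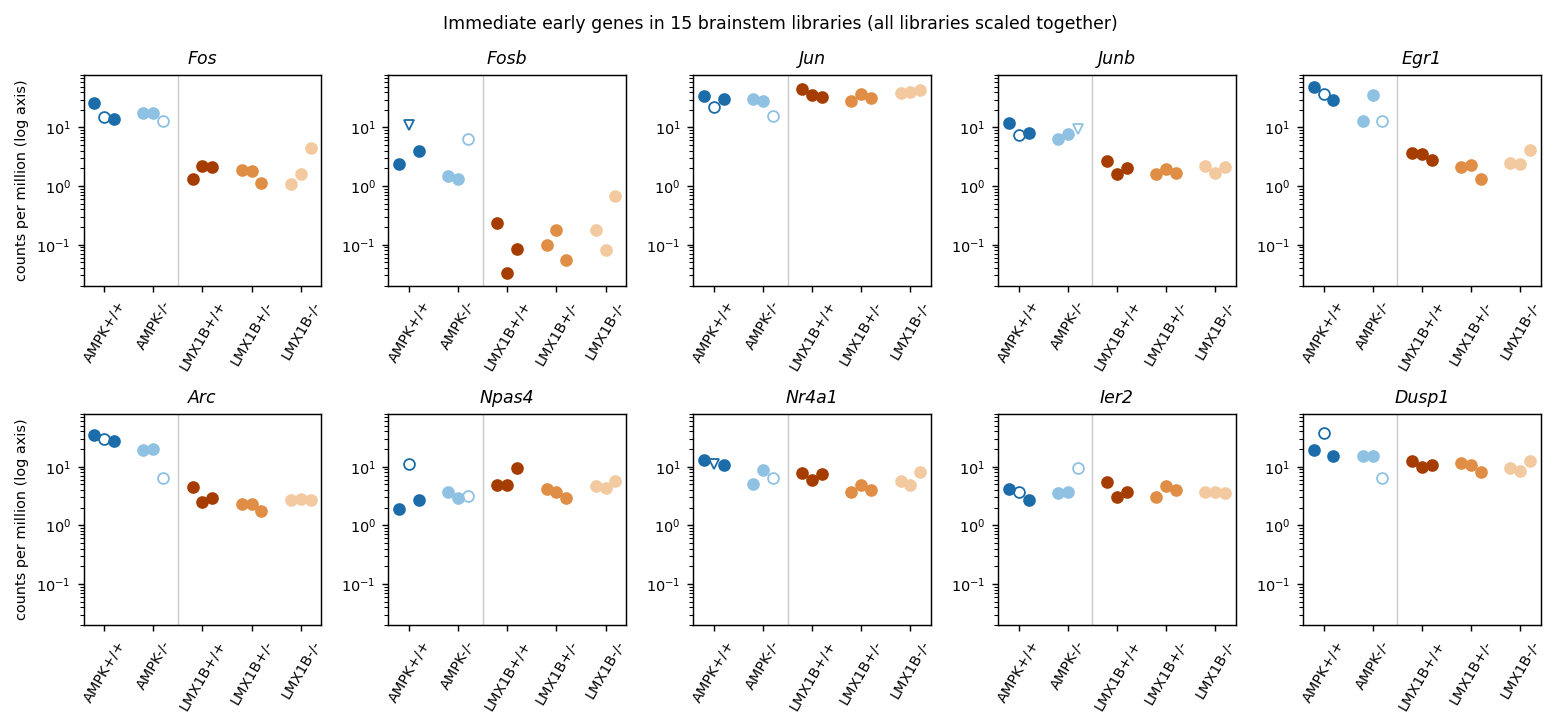
Level of each of the 10 members in each of the 15 libraries, in CPM scaled together over all libraries on a log axis, with each point 1 library. Open circles are the 2 shallow libraries, open triangles mark a count of 0 (AMPK+/+ 2 for Fosb and Nr4a1, AMPK-/- 3 for Junb) and are drawn at the level of 3 counts, and Fos, Egr1 and Arc lie higher in all 6 newborn libraries than in all 9 embryonic ones.

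The largest differences were between the experiments. The wild types of the AMPK experiment (newborn) were set against those of the LMX1B experiment (embryonic) in a fit of all 15 libraries, with CPM scaled together. Age and experiment cannot be told apart in this design. At an adjusted p under 0.05 in edgeR's quasi-likelihood F-test, 7 of the 10 members passed, 6 higher and 1 lower in newborn brainstem. Fosb, among the 6, had too few counts for a test in the LMX1B libraries alone. It entered this fit through the AMPK libraries, where it was higher, so its call is not independent of the filter. Over all genes tested, 51.1% passed, 25.7% higher and 25.4% lower. The median log2 difference was 1.48 over the members and -0.03 over all genes. Groups did not overlap for Fos, Junb, Egr1, Arc and Dusp1, all higher in newborns, against 20.5% of all genes that were higher without overlap.

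Fos, the AP-1 subunit most used as an activity mark, was at 26.2, 14.98 and 13.8 CPM in AMPK+/+ and at 1.32, 2.24 and 2.16 CPM in LMX1B+/+. Every newborn library was above every embryonic one, by 3.35 on the log2 scale (SE 0.40, 10.2-fold, edgeR adjusted p = 7.13e-07). Its relative Fosb was at 2.39 and 4.05 CPM in AMPK+/+ 1 and 3 and had 0 counts in the shallow AMPK+/+ 2, against 0.232, 0.0324 and 0.0847 CPM in LMX1B+/+. The embryonic values rest on 7, 1 and 4 counts, and the fitted log2 difference of 4.72 (SE 0.69, adjusted p = 9.34e-06) depends on them. Junb was at 12.03, 7.49 and 8.09 CPM against 2.68, 1.62 and 2.05 CPM (a log2 difference of 2.22, SE 0.29, adjusted p = 1.86e-06). Jun, their usual partner, behaved otherwise: it was at 34.4, 22.5 and 30.2 CPM in newborns and at 44.7, 35.4 and 33.6 CPM in embryos, and the groups overlapped (log2 difference -0.26, SE 0.16, adjusted p = 0.184).

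Egr1, a zinc-finger factor downstream of ERK signalling, was at 49.7, 37.5 and 29.0 CPM in newborn wild types and at 3.74, 3.47 and 2.84 CPM in embryonic ones. It differed by 3.55 on the log2 scale (SE 0.34, 11.7-fold, adjusted p = 3.41e-08). Arc was at 34.6, 30.0 and 28.1 CPM against 4.47, 2.53 and 2.92 CPM, a log2 difference of 3.24 (SE 0.23, 9.45-fold, adjusted p = 5.8e-10). Arc thus had the smallest adjusted p of the members, with its 3 newborn libraries close together. Dusp1 was at 19.2, 37.5 and 15.3 CPM against 12.7, 10.02 and 10.6 CPM, a smaller log2 difference of 0.74 (SE 0.23, adjusted p = 0.0107).

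Npas4, a factor induced by calcium entry in neurons, was the member that was lower in newborns. It was at 1.87, 11.2 and 2.74 CPM in AMPK+/+ and at 4.83, 4.87 and 9.44 CPM in LMX1B+/+. The value of 11.2 CPM is 3 counts in the shallow AMPK+/+ 2, and the libraries overlapped because of it. The fit, which weights libraries by depth, gave -1.34 (SE 0.35, adjusted p = 0.0033). Nr4a1, an orphan nuclear receptor, was at 13.3, 0 and 10.8 CPM against 7.98, 6.07 and 7.56 CPM (a log2 difference of 0.66, SE 0.28, adjusted p = 0.0584). Its 2 deep newborn libraries were above the embryonic ones and the shallow one had 0 counts. Ier2 was at 4.11, 3.75 and 2.68 CPM against 5.49, 3.05 and 3.66 CPM, with a log2 difference of -0.26 (SE 0.29, adjusted p = 0.481).

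Fos, Fosb, Junb, Egr1 and Arc passed under every alternative in which they were tested. For Fosb this says less, since in most of them it passed the filter through the AMPK libraries, where it was higher. Without AMPK+/+ 1 the calls of Npas4 (log2 difference -1.04, adjusted p = 0.055) and Dusp1 (0.67, adjusted p = 0.065) were lost. Without the shallow libraries Nr4a1 passed as well (0.73, adjusted p = 0.028). With library size as the only scaling, which moved the median of all genes to -0.31, Dusp1 was no longer called (0.48, adjusted p = 0.102) and Jun was called lower in newborns (-0.53, adjusted p = 0.0206).

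**Figure D2:**
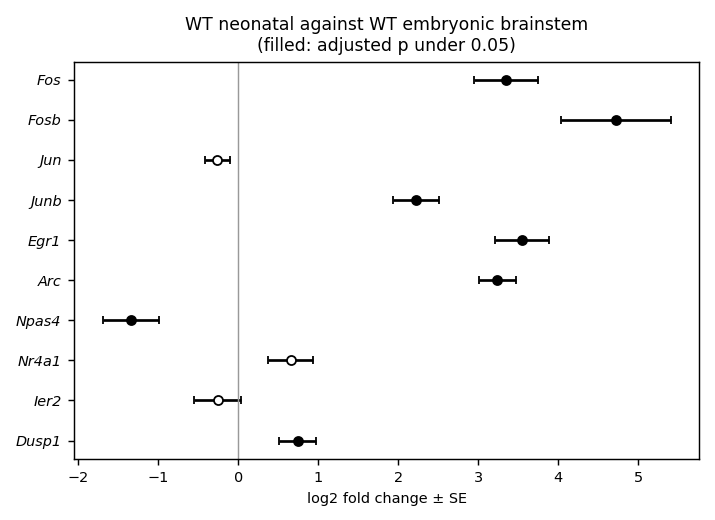
Log2 difference between newborn AMPK+/+ and embryonic LMX1B+/+ libraries for each member, with bars of 1 standard error from the fit and a line at 0. Filled points passed an adjusted p under 0.05. Fosb, Egr1, Fos, Arc and Junb lie between 2.22 and 4.72, Dusp1 and Nr4a1 near 0.7, Jun and Ier2 at -0.26 and Npas4 at -1.34.

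The experiments differed in their cells too. Oligodendrocyte markers such as Mbp summed to 9364 to 16056 CPM in AMPK libraries of either genotype and to 43.9 to 87.4 CPM in LMX1B libraries, each set on its own scale. By gene, the means in the AMPK and LMX1B libraries were 9141 and 56.2 CPM for Mbp and 2828 and 1.44 CPM for Mobp. They were 488 and 4.39 CPM for Mag and 154 and 6.55 CPM for Mog. The age of the AMPK libraries was not tested, and these myelin levels give no ground for the name newborn. That name comes from the methods alone and stands for the AMPK experiment wherever it is used. In the wild-type comparison 4 of 4 oligodendrocyte and 6 of 6 microglial markers were higher in newborns, and 5 of 6 erythroid markers were lower. Of 6 neuronal markers 2 were higher and 3 lower, and of 5 forebrain factors tested 0 were higher and 3 lower. Skeletal muscle markers, 6 of 7 called higher, stood out in 1 library: on the joint scale they summed to 677 CPM in AMPK+/+ 3, to 17.8 and 14.98 CPM in AMPK+/+ 1 and 2, and to 11.4 to 16.0 CPM in LMX1B+/+. Their part in the members' differences was not tested.

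The members did not move with all activity-linked genes. Among 38 other immediate early genes tested, 13 were higher and 13 lower in newborn brainstem, with a median log2 difference of 0.03. Gadd45b, a growth arrest gene, was at 10.1 ± 2.18 against 2.17 ± 0.295 CPM (a log2 difference of 2.15, SE 0.24), Csrnp1, a nuclear factor, differed by 2.14 (SE 0.32), and Zfp36, whose protein promotes decay of unstable mRNAs, by 1.68 (SE 0.29). The phosphatase gene Dusp4 was at 3.23 ± 2.83 against 29.6 ± 4.86 CPM (-2.64, SE 0.21), Myc differed by -2.76 (SE 0.24) and Sik1, a kinase that restrains CREB coactivators, by -2.30 (SE 0.20). These 6 had adjusted p-values of 5.39e-05 or less in the edgeR fit. Of 10 delayed genes that follow activity, 7 were higher and 2 lower. Pcsk1, a prohormone convertase, was higher by 2.19 (SE 0.19), Rasgrp1, a Ras activator, by 2.16 (SE 0.32) and Inhba, a subunit of activin, by 2.15 (SE 0.32). Lower were Nptx2, a pentraxin of excitatory synapses, at -1.61 (SE 0.26) and Homer1, a scaffold at such synapses, at -0.66 (SE 0.16).

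Of the 26 genes upstream of the members, 7 were higher and 7 lower in newborns. The ERK kinase gene Map2k1 was at 100 ± 14.6 against 43.6 ± 1.92 CPM (a log2 difference of 1.17, SE 0.15). Mrtfb, an SRF coactivator, differed by 0.92 (SE 0.16) and Rps6ka5, a kinase of CREB and histone H3, by 0.77 (SE 0.16). Camk4 was at 7.49 ± 5.42 against 31.3 ± 7.61 CPM (-1.76, SE 0.29), Rps6ka3 differed by -0.92 (SE 0.13) and Creb1 itself by -0.52 (SE 0.12). The counts of stress and hormone-responsive genes stand beside the 51.1% of all genes that passed. Among 10 heat shock and chaperone genes 7 were higher and 0 lower, with Bag3 at 3.15 (SE 0.28), Hspb1 at 2.32 (SE 0.27) and Hsph1 at 1.34 (SE 0.14). The adjusted p of Bag3 was 9.42e-09. Of 7 glucocorticoid-responsive genes 5 were higher and 1 lower: Pdk4 differed by 3.65 (SE 0.31), Sgk1 by 2.61 (SE 0.34), Tsc22d3 by 1.62 (SE 0.15) and Fkbp5 by -0.69 (SE 0.27, adjusted p = 0.0362). Whether these move with the members through a shared cause was not tested.

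Between AMPK-/- and AMPK+/+ newborns, which asks whether loss of the α2 subunit goes with a change of these genes, 1 of the 10 members passed the test. Arc was lower in AMPK-/-. Over all genes 8.94% passed, and 5.17% passed as lower. The fitted log2 difference was below 0 for 8 members, against 50.5% of all genes, with a median of -0.49 over the members and -0.01 over all genes. By their values the groups did not overlap for Junb, Arc and Dusp1, all lower in AMPK-/-, against 12.7% of all genes in that direction. For Junb this rests on a count of 0 in AMPK-/- 3, which allows up to 9.07 CPM and so a level within the AMPK+/+ range.

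Arc was at 30.5, 26.6 and 25.1 CPM in AMPK+/+ and at 16.8, 17.4 and 6.04 CPM in AMPK-/-. All AMPK-/- libraries were below all AMPK+/+ libraries, and the deep AMPK-/- libraries, with 255 and 268 counts, were close to each other. The 6.04 CPM of AMPK-/- 3 is 2 counts, under the 3 counts taken as the floor, and the 26.6 CPM of AMPK+/+ 2 is 8 counts. Counting error is wide for both, so the full separation leans on uncertain values. The fitted log2 difference was -0.77 (SE 0.24, 1.71-fold lower, edgeR adjusted p = 0.0462). This call lay at the threshold: the difference kept its sign under all 15 alternatives, but it passed in 4 of them, with adjusted p between 0.0136 and 0.417. It was lost when any 1 of the 6 libraries was left out, with log2 differences between -0.87 and -0.64. With trends on gene length and GC content removed, an alternative added after the data were seen, the difference shrank to -0.40 (adjusted p = 0.417). Without AMPK+/+ 2 and AMPK-/- 3, the shallow libraries, it was -0.69 (adjusted p = 0.157).

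Egr1 was at 43.8, 33.3 and 26.0 CPM in AMPK+/+ and at 11.5, 31.4 and 12.1 CPM in AMPK-/-. AMPK-/- 2 lay within the AMPK+/+ range and the other AMPK-/- libraries lay below it (log2 difference -0.75, SE 0.31, adjusted p = 0.129). Leaving out AMPK-/- 2 gave -1.57 (adjusted p = 0.000269), and leaving out AMPK-/- 1 gave -0.32 (adjusted p = 0.638), so the value rests on which of the deep knockout libraries is kept. Nr4a1 was at 11.7, 0 and 9.63 CPM against 4.49, 7.64 and 6.04 CPM (-0.71, SE 0.36, adjusted p = 0.222). The deep AMPK-/- libraries were below the deep AMPK+/+ libraries, and the 0 of AMPK+/+ 2 allows any level up to 9.98 CPM.

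Of the AP-1 subunits, Junb was at 10.6, 6.66 and 7.24 CPM against 5.68, 6.61 and 0 CPM (a log2 difference of -0.59, SE 0.34, adjusted p = 0.30). The gap between 6.66 and 6.61 CPM is within the error of the 2 counts behind the former. Fos was at 23.0, 13.3 and 12.4 CPM against 15.5, 15.2 and 12.1 CPM (-0.20, SE 0.27, adjusted p = 0.699). Jun was at 30.3, 20.0 and 27.0 CPM against 27.2, 24.6 and 15.1 CPM (-0.16, SE 0.22, adjusted p = 0.704). Both overlapped widely. Fosb had 2.11, 0 and 3.62 CPM against 1.32, 1.17 and 6.04 CPM, the last from 2 counts (-0.97, SE 0.55, adjusted p = 0.285).

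Dusp1 was at 16.9, 33.3 and 13.7 CPM in AMPK+/+ and at 13.5, 13.3 and 6.04 CPM in AMPK-/-. Its 3 AMPK-/- libraries were below the others by a gap of little size in the deep libraries (log2 difference -0.40, SE 0.29, adjusted p = 0.421). Ier2 was at 3.62, 3.33 and 2.39 CPM against 3.11, 3.24 and 9.07 CPM (0.20, SE 0.44, adjusted p = 0.826), and Npas4 at 1.65, 9.98 and 2.45 CPM against 3.30, 2.59 and 3.02 CPM (0.33, SE 0.50, adjusted p = 0.737). Without the shallow libraries 0 members passed, where 6 genes passed over the whole table. DESeq2 called 0 as well, but it gave an adjusted p for Jun, Egr1, Arc and Dusp1 only. It gave none for Fos, Fosb, Junb, Npas4, Nr4a1 and Ier2, which could not be called.

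Of the related genes, 1 of 35 other immediate early genes was higher in AMPK-/- and 0 lower. It was Rgs2, a regulator of G-protein signalling, at 38.0 ± 9.36 against 26.4 ± 4.80 CPM (a log2 difference of 0.71, SE 0.22, adjusted p = 0.042). Upstream genes had 4 of 26 lower and 0 higher. They included Crtc1, a CREB coactivator, at 26.5 ± 9.58 against 57.8 ± 9.31 CPM (-1.03, SE 0.22, adjusted p = 0.00524), Mef2d, a MADS-box factor, with -0.91 (SE 0.20, adjusted p = 0.00696), and Mrtfb with -0.72 (SE 0.21, adjusted p = 0.0352). Of 10 delayed genes, the granin Scg2 was higher (0.67, SE 0.17, adjusted p = 0.0177) and Rasgrp1 lower (-1.51, SE 0.34, adjusted p = 0.00911). Heat shock genes had 0 of 10 called by edgeR. Of these 10, 7 were fitted above 0 and 3 below, where 50.5% of all genes were below. Their sums were 3100.5 to 3423 CPM in AMPK-/- and 2248 to 2612 CPM in AMPK+/+. Of the glucocorticoid-responsive genes, Zbtb16 was lower, at 5.88 ± 3.06 against 17.7 ± 21.4 CPM (-1.68, SE 0.47, adjusted p = 0.0264), with a wide spread among the AMPK+/+ libraries. The mitochondrial share of counts, given above, was higher in every AMPK-/- than in every AMPK+/+ library. All 5 skeletal muscle markers tested were lower in AMPK-/-, and their sum was 605 CPM in AMPK+/+ 3 and 5.68 to 15.7 CPM in the other 5 libraries. Choroid plexus markers summed to 36.5 to 133 CPM in AMPK-/- and to 9.98 to 14.8 CPM in AMPK+/+. Of 6 neuronal markers 3 were higher and 1 lower in AMPK-/-, and their sums, given above, did not overlap between the genotypes. Of 5 erythroid markers tested 2 were higher and 0 lower. The part of any of these in the members' values was not tested.

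**Figure D3:**
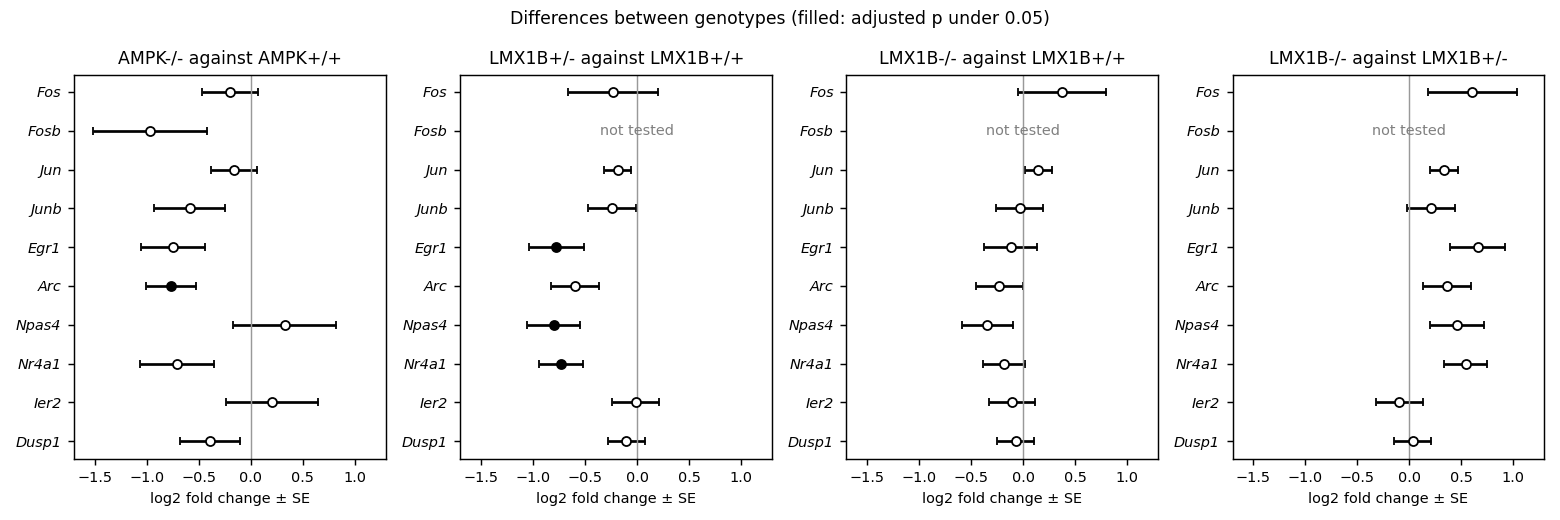
Log2 differences of the members in the 4 genotype comparisons, with bars of 1 standard error from the edgeR fits, filled points where the adjusted p was under 0.05 and a line at 0. Arc in the AMPK comparison and Egr1, Npas4 and Nr4a1 in LMX1B+/- against LMX1B+/+ are the filled points, and all 4 lie between -0.80 and -0.73.

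Embryos labelled LMX1B+/- had lower Egr1, Npas4 and Nr4a1 than LMX1B+/+ embryos. These 3 of the 9 members tested passed, and 0 passed as higher. Fosb did not reach the count needed for a test. In this comparison 36.7% of all genes passed, 17.3% as lower, so the background is high. All 9 fitted differences were below 0, against 52.1% of all genes, with a median of -0.24 against -0.03 over all genes. The libraries did not overlap for Egr1, Arc, Npas4 and Nr4a1, against 21.9% of all genes that were lower without overlap.

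Nr4a1 was at 8.48, 6.48 and 8.04 CPM in LMX1B+/+ and at 3.98, 5.48 and 4.38 CPM in LMX1B+/-. Every LMX1B+/- library was below every LMX1B+/+ library, by 0.73 on the log2 scale in the fit (log2 difference -0.73, SE 0.21, 1.66-fold, edgeR adjusted p = 0.0142). It passed under 17 of 19 alternatives, and the adjusted p did not go above 0.0547. Npas4 was at 5.14, 5.20 and 10.05 CPM against 4.52, 4.13 and 3.15 CPM. LMX1B+/+ 3 stood well above the rest, and without it the log2 difference of -0.80 (SE 0.25, adjusted p = 0.0249) became -0.38 (adjusted p = 0.179). Egr1 was at 3.97, 3.71 and 3.02 CPM against 2.28, 2.52 and 1.44 CPM, with LMX1B+/- 3 lowest (log2 difference -0.78, SE 0.27, adjusted p = 0.0350). It passed under 13 of 19 alternatives.

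Arc was at 4.75, 2.70 and 3.11 CPM against 2.497, 2.61 and 1.86 CPM, without overlap but with 2.70 and 2.61 CPM nearly touching (log2 difference -0.60, SE 0.23, adjusted p = 0.0576). It passed with limma on log2 RPKM (adjusted p = 0.0219), with library size as the only scaling (-0.82, adjusted p = 0.0143) and without LMX1B+/+ 2 (-0.75, adjusted p = 0.0282), and fell short without LMX1B+/+ 1 (-0.33, adjusted p = 0.276). The AP-1 members and the others overlapped. Jun was at 47.5, 37.8 and 35.8 CPM against 30.5, 41.1 and 34.6 CPM (-0.19, SE 0.13, adjusted p = 0.286). Fos was at 1.41, 2.39 and 2.30 CPM against 2.03, 1.97 and 1.23 CPM (-0.23, SE 0.44). Junb, Dusp1 and Ier2 differed by -0.24, -0.10 and -0.01, with adjusted p of 0.439 or more.

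The calls changed with the libraries kept. For Nr4a1 the log2 difference stayed between -0.85 and -0.65 when any 1 of the LMX1B+/+ or LMX1B+/- libraries was left out. Without LMX1B+/- 3, 0 of the 9 members passed, with log2 differences of -0.56 for Egr1, -0.66 for Npas4 and -0.69 for Nr4a1 (adjusted p = 0.146, 0.110 and 0.0547). Without LMX1B+/+ 1 only Npas4 passed, and with trends on gene length and GC content removed only Nr4a1 did.

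The libraries labelled LMX1B+/- differed from wild type in blood-cell transcripts. All 6 erythroid markers, among them globin genes, were higher, and they summed to 6090, 3549 and 7513 CPM in LMX1B+/- against 510, 969 and 1251 CPM in LMX1B+/+. LMX1B+/- 3, the library with the lowest members, had the highest erythroid sum and the highest mitochondrial share (14.7%). All 4 oligodendrocyte, 3 of 5 astrocyte and 2 of 6 endothelial markers were lower in LMX1B+/-. Of 8 brainstem markers 4 were higher and 1 lower, and their sum was highest in LMX1B+/- 1, at 489 CPM. Their part in the lower members was not tested.

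The wider family also held changes in either direction. Of 37 other immediate early genes, 2 were higher and 6 lower in LMX1B+/-. Rgs2 was at 75.3 ± 10.9 against 39.2 ± 1.09 CPM (a log2 difference of 0.94, SE 0.11, adjusted p = 2.92e-05), and Tiparp, a gene of the PARP family, was higher by 0.49 (SE 0.12, adjusted p = 0.00801). Lower were the clock gene Per1 (-0.62, SE 0.16, adjusted p = 0.00805), Sik1 (-0.57, SE 0.15, adjusted p = 0.00841) and Jund, a further AP-1 subunit (-0.36, SE 0.12, adjusted p = 0.0288). The upstream list had 13 of 26 genes lower and 1 higher. Mrtfb was at 21.2 ± 1.93 against 39.1 ± 3.12 CPM (-0.88, SE 0.11, adjusted p = 4.93e-05), Crtc1 differed by -0.81 (SE 0.13, adjusted p = 0.000464) and Crebbp, the CREB-binding acetyltransferase, by -0.67 (SE 0.12, adjusted p = 0.000881). Crem, of the CREB family, was the gene that was higher (0.50, SE 0.16, adjusted p = 0.0262).

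Of the 10 delayed genes, Vgf, a neuropeptide precursor, was at 20.5 ± 2.59 against 46.2 ± 2.82 CPM (a log2 difference of -1.17, SE 0.13, adjusted p = 2.93e-05) and Nptx2 was lower by a smaller amount (-0.41, SE 0.15, adjusted p = 0.0452), with 0 higher. Of the heat shock and chaperone genes, Hsp90aa1 (0.79, SE 0.14), Dnaja1 (0.73, SE 0.11) and Hspa8 (0.51, SE 0.14) were higher, and Hspa1b (-0.72, SE 0.20) and Hspa1a (-0.63, SE 0.20) lower. The last pair are near-identical copies, and reads may be split between them. Of the glucocorticoid-responsive genes, Zbtb16 (-0.53, SE 0.15) and Sgk1 (-0.37, SE 0.11) were lower.

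In LMX1B-/- embryos, where Lmx1b RNA was low, 0 of 9 members passed against LMX1B+/+ in edgeR, and 0 had an unadjusted p under 0.05, against 8.09% of all genes. DESeq2 and limma gave 0 as well. Over all genes 0.0184% passed. Log2 differences ran from -0.34 for Npas4 to 0.37 for Fos, and 7 of 9 were below 0, against 47.9% of all genes, with a median of -0.11 against 0.01 over all genes. Egr1 was at 2.74, 2.55 and 4.48 CPM, Npas4 at 5.13, 4.81 and 6.23 CPM and Nr4a1 at 6.13, 5.23 and 8.83 CPM, each overlapping with the wild-type values given above. Arc was close to constant over the LMX1B-/- libraries, at 2.97, 3.06 and 2.94 CPM, and within the wild-type range. Jun was at 42.2, 43.9 and 47.8 CPM, and its difference of 0.15 had a standard error of 0.13. In the related lists, 0 of 37 other immediate early genes, 0 of 26 upstream genes, 0 of 10 delayed genes and 0 of 10 heat shock genes passed in edgeR, and 4, 2, 2 and 3 of them had an unadjusted p under 0.05. Of 5 forebrain factors tested 0 passed and 4 had an unadjusted p under 0.05.

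The direct comparison of LMX1B-/- with LMX1B+/-, which shares the LMX1B+/- libraries with the comparison to wild type, gave 0 of 9 members past the threshold in edgeR, against 25.5% of all genes and 11.5% in the higher direction. Of the 9, 8 were fitted above 0, against 51.9% of all genes, and 3 had an unadjusted p under 0.05, against 36.8%. The median was 0.37 over the members and 0.02 over all genes. Nr4a1 differed by 0.55 (SE 0.21, adjusted p = 0.0714), Egr1 by 0.66 (SE 0.27, adjusted p = 0.0879) and Jun by 0.33 (SE 0.13, adjusted p = 0.0783). The libraries did not overlap for Jun, Egr1, Arc and Npas4, all higher in LMX1B-/-, against 21% of all genes. DESeq2 called 1 member, Nr4a1, and limma on log2 RPKM called 1, Jun. Upstream genes were higher for 7 of 26 and lower for 0, with Mrtfb at 0.75 (SE 0.11), Crtc1 at 0.51 (SE 0.13) and Crebbp at 0.45 (SE 0.12), and Vgf was higher by 1.04 (SE 0.13). Of the other immediate early genes Fosl2, an AP-1 subunit, and Sik1 were higher (0.53 and 0.45) and Rgs2 and Tiparp lower (-0.76 and -0.45). Hspa1b (0.70) and Zbtb16 (0.48) were higher and Hsp90aa1 (-0.47) and Dnaja1 (-0.43) lower. All 6 erythroid markers were lower in LMX1B-/- than in LMX1B+/-, and 3 of 4 oligodendrocyte markers were higher. Of 5 forebrain factors tested 3 were higher and 0 lower.

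Within genotypes, the members varied from embryo library to embryo library. LMX1B-/- 3 was the highest of the 9 libraries for 6 members and among the top 3 for 8. Fos was at 4.88 CPM there (184 counts), against 1.19 and 1.78 CPM in the other LMX1B-/- libraries and at most 2.39 CPM in the remaining 6. Fosb was at 0.742 CPM (28 counts), against 0.0346 to 0.246 CPM in the other 8. LMX1B+/+ 1 was highest within its genotype for 8 members, but it had the lowest Fos of the LMX1B+/+ libraries, and LMX1B+/- 3 was among the lowest 3 of the 9 for 9 members. The members did not all peak in the same library: Npas4 peaked in LMX1B+/+ 3, Arc, Ier2 and Junb in LMX1B+/+ 1, and Fos, Fosb and Egr1 in LMX1B-/- 3. The choroid plexus sum was 99.8 CPM in LMX1B-/- 3 against 1261 and 712 CPM in LMX1B-/- 1 and 2, and its erythroid sum was 2382 CPM against 1061 and 1302 CPM.

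Across the 9 embryonic libraries, with each genotype's mean subtracted, a member's log2 CPM correlated with the mean of the other members at r = 0.93 for Fosb, 0.88 for Nr4a1 and Dusp1, 0.80 for Egr1, 0.65 for Junb, 0.56 for Jun, 0.51 for Arc, 0.40 for Fos, 0.36 for Ier2 and 0.26 for Npas4. Set among the r of 17115 other genes, with a mean of at least 1 CPM, with the mean of all 10 members, these values stood at percentile 99.3 for Fosb, 96.9 for Nr4a1 and Dusp1 and 92.9 for Egr1, and between 66.4 and 84.6 for the other 6 members. The genes of a library share its depth and tissue composition, which differed between libraries, and their part in these r was not tested. The r are descriptions over 9 points. Fosb, with the highest r, had 28 counts in LMX1B-/- 3 and 7 or fewer in each other library. Its mean of 0.195 CPM was below the 1 CPM asked of the genes it was set among. The 5 other genes whose pattern was most like the mean of the members, among the same 17115, were Fto (r = 0.990), Syn1 (0.987), Faah (0.986), Arhgap39 (0.986) and Hgs (0.985). Fto encodes an RNA demethylase, Syn1 a synaptic vesicle protein and Faah an amide hydrolase of endocannabinoid signalling. None of the 5 is an immediate early gene of the lists used here. The 5 were picked from 17115 genes for their r over these same 9 points, so a high r is partly the result of the choice. Leaving out LMX1B-/- 2 and LMX1B-/- 3, the libraries farthest from the median of the members' mean, gave r = 0.984 for Fto and 0.976 for Syn1. These values come from the same libraries and are no independent check.

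**Figure D4:**
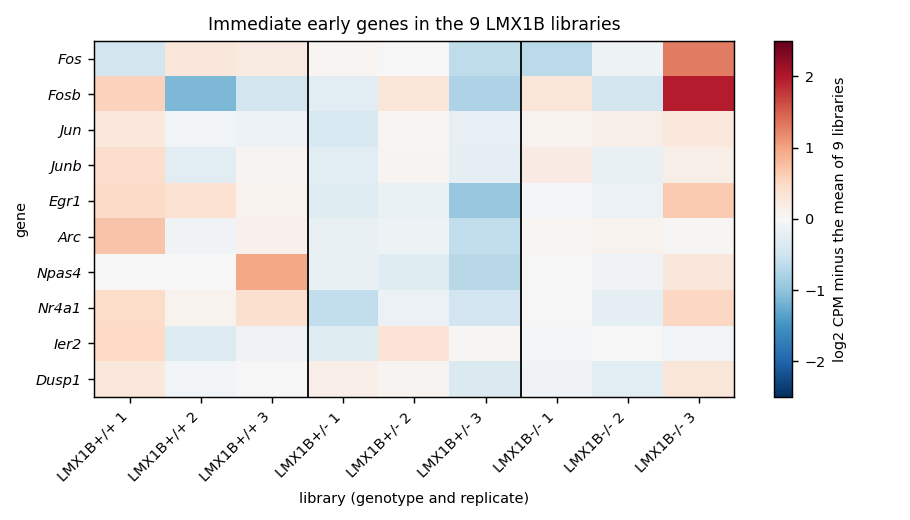
Deviation of each member's log2 CPM from its mean over the 9 LMX1B libraries, as a colour scale from blue (lower) to red (higher), with members in rows and libraries in columns by genotype. LMX1B-/- 3 is highest for 6 members and LMX1B+/- 3 is among the lowest 3 for 9.

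Counting could blur 3 members. In the GENCODE M21 annotation Jun overlaps its antisense gene Junos, Junb overlaps Prdx2 on the opposite strand, and Dusp1 overlaps Ergic1 and a pseudogene on the opposite strand. On its own strand Dusp1 overlaps a processed pseudogene and a sense-intronic gene, which no strand setting would separate. The kit keeps the strand, but the strand setting of the counting is not given in the sources used here, so reads of these pairs may not be told apart. The annotated overlaps are the same in all 15 libraries, but the RNA of the overlapping genes may differ between groups, and its part in the members' counts was not tested.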

How the data were processed

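Deposited count tables of 2 experiments (6 and 9 libraries, 57180 Ensembl genes, 90.7% with a symbol) were used. The counts deposited by the authors are whole numbers without normalization, and the RPKM deposited by the authors divide them by gene length and library total. Reads had been aligned with HISAT2 in systemPipeR to GRCm39, per the labels and methods; the counting tool and the use of the kit's molecular indexes are not given in the sources used here. Columns were matched to samples by genotype and number; the column of LMX1B+/+ 3 carries the number 4 of its library name, and that of AMPK+/+ 3 a suffix after its number.

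In R 4.3.3, edgeR 4.0.16 was run on the counts with filterByExpr (default settings, minimum count 10), TMM scaling and the quasi-likelihood F-test, in separate fits of the 6 AMPK libraries, the 9 LMX1B libraries and all 15, with genotype group as the only term and two-sided tests. P-values were adjusted by Benjamini-Hochberg over all genes tested, and an adjusted p under 0.05 is a call. CPM are counts per 1000000 of the TMM-scaled total, scaled within each table except in the comparison between experiments. Standard errors are the log2 fold change divided by the square root of F. DESeq2 1.42.0, limma 3.58.1 on log2(RPKM + 1), other scalings and filters, removed length and GC trends, a replicate block and left-out libraries were alternatives. The procedure was also run on simulated counts, whose outcome is not given here and is not used as support. Depth is given per library in the report, and p-values cover the spread between libraries.

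The 10 members, the related lists and the markers were chosen with earlier results of these data known. Of the brainstem and oligodendrocyte lists, 1 gene each is not reported here and was left out of their sums and counts. Named genes were all 10 members, up to 3 called genes per related list, comparison and direction by smallest adjusted p, and the 5 genes of highest correlation with the members' mean. Promoter sequences came from RefSeq (GRCm38.p6), whose build differs from that of the counts.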

Additional observations from a re-analysis of the deposited data

How the results depend on the processing

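Of 892 recomputed member differences, 806 kept their direction and their side of the threshold, 25 lost a call, 24 gained one and 37 changed sign. A difference without an adjusted p was counted as not called. No difference that had been called changed sign. Counting error limits the AMPK table most, since its 2 shallow libraries hold 44 and 25 counts of the members and a filter of at least 10 counts in every library leaves 0 members to test there and in the 15-library fit. limma across both tables and a block over all 15 libraries were not run, since the tables were scaled separately and their numbers are unrelated.

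Members called in AMPK-/- against AMPK+/+ numbered 1 at first, 0 with DESeq2, limma, both shallow libraries left out, or length and GC trends removed, 2 (Egr1 and Arc) with library size as the only scaling, and 0 to 1 with a library left out. The 0 of DESeq2 covers only Jun, Egr1, Arc and Dusp1, the members given an adjusted p there. In LMX1B+/- against LMX1B+/+ the 3 calls became 4 with limma or library size only (Arc added), 1 with length and GC trends removed and 0 to 3 with a library left out. In LMX1B-/- against LMX1B+/- the 0 became 1 with DESeq2 (Nr4a1), 1 with limma (Jun), 3 with library size only, 2 without a filter and 0 to 1 with a library left out. Against LMX1B+/+, LMX1B-/- gave 0 in all alternatives, and the comparison of experiments gave 5 to 8. The cause of these shifts was not tested.

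The replicate block called 2 members in the AMPK comparison (Egr1 and Arc), 2 in LMX1B+/- against LMX1B+/+ (Npas4 and Nr4a1) and 0 in the other genotype comparisons. Deviations of same-numbered libraries correlated at -0.177 to 0.148, and in no comparison did all exceed 0.1, so the numbers are not taken to pair the libraries. The correlations over LMX1B+/- and LMX1B-/- were -0.177, -0.133 and -0.149.

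Library size as the only scaling moved the median log2 difference of all genes to -0.18 (AMPK), -0.27 (LMX1B+/- against LMX1B+/+), 0.22 (LMX1B-/- against LMX1B+/-) and -0.31 (experiments). It changed the split of higher and lower calls over all genes from 655 and 900 to 273 and 1655, from 4225 and 3752 to 2054 and 5816, from 2500 and 3044 to 3737 and 1296, and from 5738 and 5667 to 3879 and 7375. Calls over all genes in the AMPK comparison ran from 0 (limma) and 6 (without the shallow libraries) to 2958, and those of LMX1B-/- against LMX1B+/+ from 3 to 329.

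Sign changes, all of differences that were not called, were as follows on the log2 scale. In the AMPK comparison they were Npas4 -0.000239 with DESeq2, Fosb 0.11, Npas4 -0.26 and Nr4a1 0.0019 with limma, Ier2 -0.016 with the length trend removed and Jun 0.027 with length and GC trends removed. With both trends removed, LMX1B+/- against LMX1B+/+ gave Junb 0.031, Ier2 0.082 and Dusp1 0.021, LMX1B-/- against LMX1B+/+ gave Junb 0.079, and LMX1B-/- against LMX1B+/- gave Dusp1 -0.054. In that last comparison Ier2 was 0.089 with limma, 0.093 with library size only and 0.089 with the length trend removed. With a library left out, the ranges were as follows. In the AMPK comparison Fos spanned -0.49 to 0.27, Npas4 -0.053 to 0.53 and Ier2 -0.037 to 0.50. In LMX1B+/- against LMX1B+/+ Ier2 spanned -0.18 to 0.26 and Dusp1 -0.22 to 0.042. In LMX1B-/- against LMX1B+/+ Fos spanned -0.45 to 0.71 (negative without LMX1B-/- 3), Junb -0.19 to 0.16, Egr1 -0.42 to 0.028, Arc -0.38 to 0.039, Npas4 -0.51 to 0.036, Ier2 -0.27 to 0.16 and Dusp1 -0.25 to 0.044. In LMX1B-/- against LMX1B+/- Fos spanned -0.22 to 0.94, Ier2 -0.25 to 0.024 and Dusp1 -0.14 to 0.15. Between the experiments Ier2 spanned -0.58 to 0.064.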
